A study of Mus musculus with 235 samples.

Results

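The genes described here are those that encode the proteins of the cytosolic ribosome, measured in mouse liver after isoniazid or vehicle. They were chosen by symbol: Rpl or Rps followed by a digit, Rplp0, Rplp1, Rplp2 or Rpsa, without the Rps6k kinases and without pseudogenes. The rule found 45 of the 18146 genes that the arrays measured with a probe set of 1 gene symbol. A further 28 symbols of the rule, among them Rpl3, Rpl5, Rpl10, Rpl11, Rpl24 and Rplp1, lay only on probe sets shared by several symbols and were not analysed here.

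The mice were females from 31 inbred strains at an age of 8 to 10 weeks. They received either isoniazid, a tuberculosis drug with known liver toxicity, at 100 mg/kg, or sterile water (vehicle), daily for 3 days by oral gavage, and the left liver lobe was taken 24 h after the last dose. Vehicle arrays numbered 124, 4 per strain, and isoniazid arrays numbered 111, with 4 animals in 22 strains, 3 in 5 strains and 2 in 4 strains, since some dosed animals had died. The submitters coded 13 strains as showing steatosis (fat stored in hepatocytes) with isoniazid and 18 as not.

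The values are log2 levels from the RMA method, which equalises the distributions of the arrays, so a level has no zero and is compared here between animals for the same gene and not between genes. Array medians lay between 3.96 and 4.21. The tissue label was checked with markers of hepatocytes: the albumin gene Alb lay between 14.10 and 14.61 on all arrays, and the lowest of the 10 markers, Tat, had a median of 11.66. A set of 21 arrays (11 vehicle, 10 isoniazid) had a narrower spread of values (SD 2.10 to 2.20) than the rest (SD 2.23 to 2.35), and strain medians and calls within single strains are given with and without them. In bulk tissue, fewer cells of a type and less RNA per cell cannot be told apart.

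The ribosome is built from a small subunit, which reads the mRNA, and a large subunit, which joins amino acids and carries a flexible stalk that recruits the elongation factors. Most of its proteins are present once per ribosome, and in mammals their mRNAs start with a run of pyrimidines, the 5′ terminal oligopyrimidine (TOP) motif, through which mTORC1 signalling and the RNA-binding protein LARP1 set their translation together. Some ribosomal proteins have a second gene, a paralog, such as Rpl22l1 for Rpl22, and free RPL22 protein is known to repress Rpl22l1. The small nucleolar RNAs (snoRNAs) that guide the modification of ribosomal RNA are cut from introns of host genes, several of which are also TOP genes.

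The 45 genes comprised 18 of the large subunit, 18 of the small subunit, 2 of the stalk (Rplp0 and Rplp2), 6 paralogs of another ribosomal protein gene (Rpl22l1, Rpl39l, Rpl3l, Rpl7l1, Rps27l and Rps4l) and Rps19bp1, which fits the rule by its symbol but encodes a protein that binds RPS19 and is no part of the ribosome. In total 36 of the 45 lay above the 40th percentile of mean level over all genes, which was 4.47. The other 9 were Rpl12, Rpl39l, Rpl3l, Rps15, Rps16, Rps2, Rps24, Rps4x and Rpsa. Their levels, such as 1.89 to 2.36 for Rpsa over the strains under vehicle, are given, but they lie at the dim end of the array. For 14 of the 45 genes the probe set used has a suffix (_x_at) that marks probes shared with other transcripts, which includes near-identical copies such as pseudogenes, and those values are uncertain to that degree. The probe sets used for Rpl22 and Rps9 end in _s_at, a suffix that can also mark probes common to several transcripts. Whether they measure these genes alone was not examined.

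The stretches just before the transcription start are shown for the 2 genes that differed over all strains, Rpl22 and Rpl22l1, and for Rpl41 and Rpl35, whose response differed most between strains or whose start region holds most of the motifs searched. The promoter table (RefSeq, GRCm38.p6) had windows of 300 bases, 250 before and 50 after a start, for 40 of the 45 genes. Each line holds the 100 bases before the start, 5′ to 3′ on the gene's strand, and capitals mark a match to 1 of 5 motifs searched on both strands: CCGGAAG (the ETS or GABP site), AAGATGGC (the YY1 site), TATAAA (the TATA box), GGGCGG (the GC box) and CTCTTTC (a pyrimidine run). Rpl22 has 2 windows. The lines are Rpl22l1 at chr3:28805408-28805507 (+), Rpl22 at chr4:152325626-152325725 (+), Rpl22 at chr4:152324336-152324435 (+), Rpl41 at chr10:128549169-128549268 (-) and Rpl35 at chr2:39005132-39005231 (-).
Rpl22l1: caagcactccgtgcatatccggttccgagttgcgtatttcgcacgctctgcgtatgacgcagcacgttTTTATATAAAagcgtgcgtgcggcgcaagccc
Rpl22, first window: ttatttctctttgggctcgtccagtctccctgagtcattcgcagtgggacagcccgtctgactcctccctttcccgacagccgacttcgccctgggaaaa
Rpl22, second window: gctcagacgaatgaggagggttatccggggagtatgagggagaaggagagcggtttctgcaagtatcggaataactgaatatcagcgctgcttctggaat
Rpl41: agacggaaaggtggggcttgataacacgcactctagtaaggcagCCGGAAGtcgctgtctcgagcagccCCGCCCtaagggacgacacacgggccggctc
Rpl35: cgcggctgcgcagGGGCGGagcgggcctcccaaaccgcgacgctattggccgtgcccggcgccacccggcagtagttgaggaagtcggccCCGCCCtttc

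In the stretch of Rpl22l1 the capitals are a TATAAA on the gene's strand and an overlapping one on the opposite strand, and neither Rpl22 stretch holds a match within the 100 bases shown. The whole second window of Rpl22 also holds TATAAA, and AAGATGGC, outside those bases. Over whole windows and both strands, CCGGAAG was found in 18 of the 40 genes (45%) against 9.93% of all 27025 genes of the table. GGGCGG was found in 25 of 40 (62.5%) against 38.2%, AAGATGGC in 4 (10%) against 3.19%, TATAAA in 6 (15%) against 15.7%, and CTCTTTC in 6 (15%) against 9.28%. On the gene's own strand CTCTTTC was found in 3 of 40 (7.5%) against 4.6% of all genes. This is a fixed run counted anywhere in the window, so it does not count TOP motifs, which vary in sequence and lie at the start itself. These are letter matches in a window and say nothing of binding.

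Averaged over the 31 strains, 2 of the 45 genes changed under isoniazid, against 20.0% of all genes tested. Rpl22, a large-subunit protein, fell, and its paralog Rpl22l1 rose. The other 43 genes had mean differences (isoniazid minus vehicle, log2) from -0.15 for Rpl14 to 0.10 for Rpl38, and their adjusted p did not pass 0.05 (limma over strain differences, Benjamini-Hochberg over all genes). The median difference was 0.02 over the 45 genes and 0.00 over all genes. Over all 18146 genes 10.2% were called higher and 9.85% lower. With animals in place of strains as replicates, which leaves out the spread between strains, 9 of the 45 were called higher (Rpl10a, Rpl19, Rpl22l1, Rpl38, Rpl4, Rpl41, Rplp2, Rps20 and Rps27l) and 5 lower (Rpl14, Rpl22, Rpl37a, Rpl8 and Rps7). More genes of any kind were called in that setting: 14 of the 45 beside 5094 of all 18146.

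**Figure D1:**
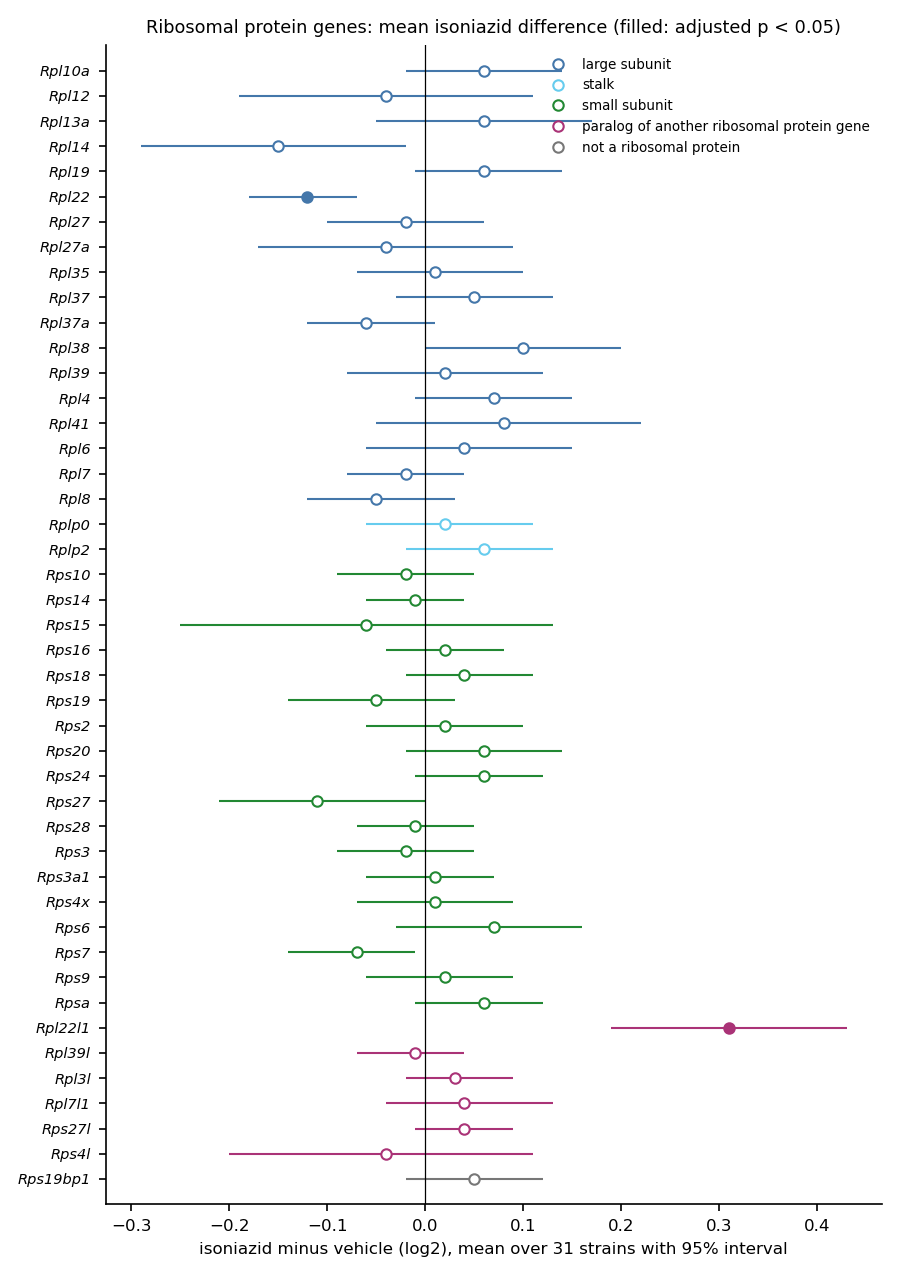
Mean isoniazid difference of each of the 45 genes over 31 strains. The x axis is isoniazid minus vehicle on the log2 scale, bars are 95% intervals, colours give the role of the protein, and filled points passed an adjusted p of 0.05; Rpl22 lies at -0.12 and Rpl22l1 at 0.31, and the other 43 genes lie between -0.15 and 0.10 with open points.

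Rpl22l1 had a mean over strains of 10.88 ± 0.32 (SD, n = 31) under vehicle. Its difference was 0.31 (SE 0.06, a 1.24-fold rise, limma adjusted p = 0.000227), and it was higher in 28 of 31 strains. The largest difference was in NZW/LacJ, where the 4 vehicle animals had 10.84, 10.77, 10.84 and 10.58 and the 4 isoniazid animals 12.04, 12.34, 12.01 and 12.24. All isoniazid animals of that strain lay above all its vehicle animals, by 1.40 between the means (SE 0.17, limma adjusted p within the strain = 3.24e-11). LP/J followed with 0.95 (SE 0.18), BTBR T+ tf/J with 0.90 (SE 0.17) and DBA/2J with 0.79 (SE 0.17). A/J lay at the other end with -0.17 (SE 0.21): its vehicle animals had 10.93, 10.99, 11.01 and 10.95 and its 2 isoniazid animals 10.89 and 10.71, and this difference did not pass the test.

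Rpl22 had a mean of 12.04 ± 0.11 (SD, n = 31 strains) under vehicle and fell by 0.12 (SE 0.03, limma adjusted p = 0.000416), a 1.09-fold change that was lower in 24 of 31 strains. In FVB/NJ, the strain with the largest fall, vehicle animals had 12.17, 12.19, 12.09 and 12.24 and isoniazid animals 11.80, 11.82, 11.74 and 12.07. The groups did not overlap, but the difference of -0.32 (SE 0.08) did not pass the test within that strain alone (limma adjusted p = 0.104). In LG/J, at the other end, vehicle animals had 12.05, 11.97, 12.06 and 11.98 and the 3 isoniazid animals 12.44, 12.12 and 11.86, which lie on both sides of the vehicle values. Within single strains the difference of Rpl22 passed the test in NOR/LtJ with all arrays (-0.27, limma adjusted p = 0.0368) but not without the narrow-spread arrays (-0.21, adjusted p = 0.665), and without them it passed in AKR/J (-0.32, adjusted p = 0.0102). The other probe sets of Rpl22 had mean differences of -0.18 (lower in 22 strains) and -0.08 (lower in 19), the same sign as the one used. The latter is dim, with a vehicle mean of 4.05. Rpl22l1 had 1 probe set.

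**Figure D2:**
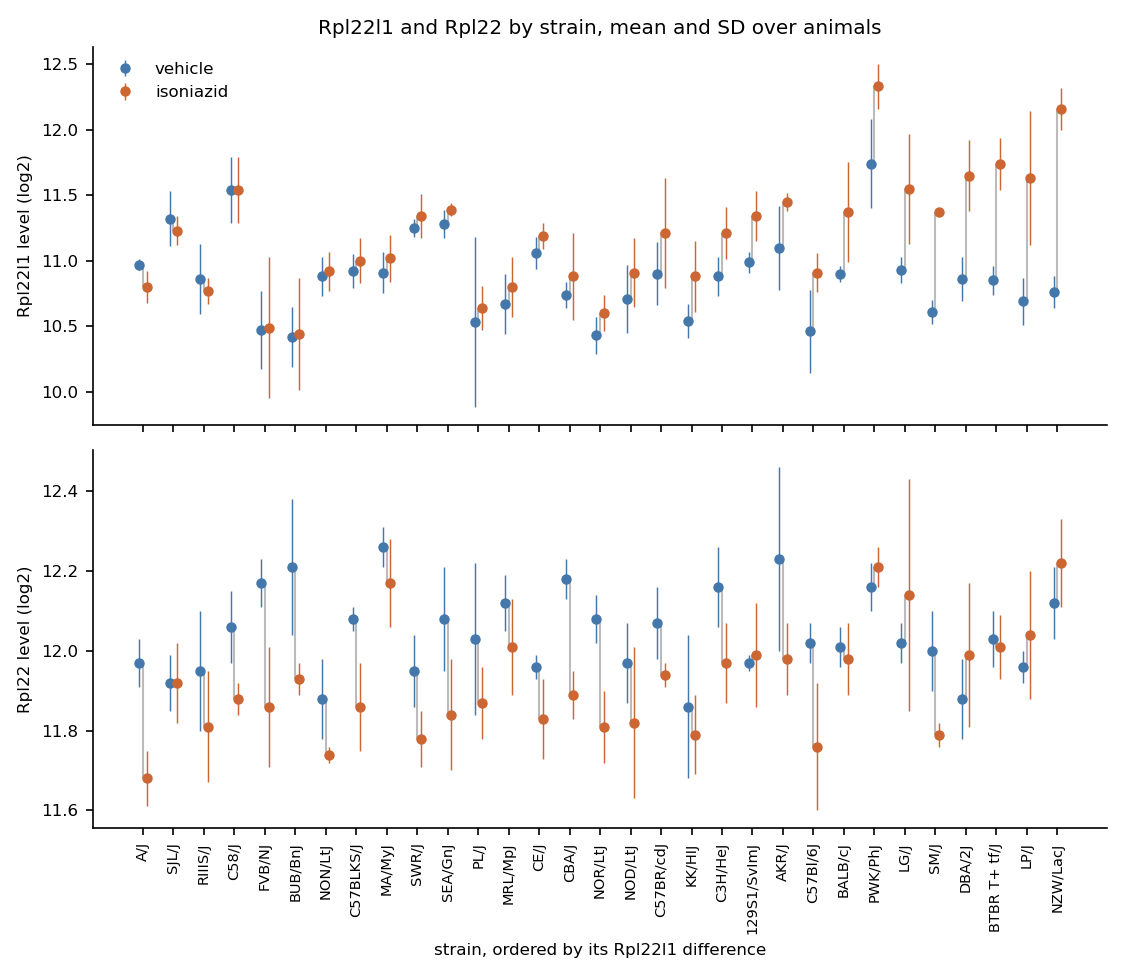
Levels of Rpl22l1 (top) and Rpl22 (bottom) in each strain, on the log2 scale. Points are means of the vehicle (blue) and isoniazid (orange) animals, bars their SD, grey lines join the means, and strains are ordered by their Rpl22l1 difference from A/J (-0.17) to NZW/LacJ (1.40); orange lies above blue for Rpl22l1 in 28 strains and below blue for Rpl22 in 24.

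The opposite shift of the pair held within most strains. Rpl22 was lower and Rpl22l1 higher in 22 strains, both were higher in 6 and both lower in 2, and in SJL/J Rpl22 was higher by less than 0.01 and Rpl22l1 lower by 0.09. The difference of Rpl22l1 exceeded that of Rpl22 by 0.43 ± 0.29 (SD, n = 31) and in 30 of 31 strains. Across strains, however, the differences of the pair ran in the same direction: strains with a larger rise of Rpl22l1 had a smaller fall of Rpl22 (Pearson r = 0.64, permutation p = 0.00022, adjusted over 2 relations 0.00044; Spearman rho = 0.53, permutation p = 0.00288; n = 31). Without the 2 strains farthest from the median of Rpl22, r was 0.59, and with scan date as a term it was 0.58. Under vehicle no relation between the levels of the pair was detected (r = -0.01, permutation p = 0.969; rho = -0.06, permutation p = 0.755; r = -0.07 without the 2 farthest strains and 0.02 with scan date as a term). Both values of a strain come from the same arrays. Over strains the difference of each gene also correlated with the median of the other genes of the group (r = 0.89 for Rpl22 and 0.79 for Rpl22l1). Whether the relation is particular to the pair was not tested.

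Against the median of the 43 other genes in the same strain, Rpl22 shifted by -0.13 ± 0.07 (SD, n = 31) and was below it in all 31 strains, with the lowest value, -0.33, in NZW/LacJ. Rpl22l1 shifted by 0.30 ± 0.25 against that median and was above it in 30 strains, with 0.97 in NZW/LacJ and -0.13 in SJL/J. These values describe the same contrast that singled out the pair. Within each of the 10 scan dates, with strain means removed, Rpl22 was lower under isoniazid, by -0.22 to -0.06, and Rpl22l1 was higher, by 0.19 to 0.38.

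The large-subunit genes other than Rpl22 did not pass the test over strains. Rpl38, whose loss in mice disturbs the vertebral pattern, had the highest mean difference, 0.10 (SE 0.05, limma adjusted p = 0.19), and it was higher in 16 strains and lower in 15. Rpl14, at -0.15 (SE 0.06, limma adjusted p = 0.0904), was lower in 19 strains. Rpl13a, which also acts in the silencing of inflammatory mRNAs, had 0.06 (limma adjusted p = 0.506).

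The stalk genes Rplp0, often used as a reference gene in quantitative PCR, and Rplp2 had 0.02 (95% interval -0.06 to 0.11) and 0.06 (-0.02 to 0.13). Of the small-subunit genes, Rps6, which encodes the target of the S6 kinases, had 0.07 (SE 0.05), Rps19, mutated in Diamond-Blackfan anaemia, -0.05 (SE 0.04), and Rps14, lost in the 5q- syndrome, -0.01 (SE 0.03). Rpsa, the laminin receptor gene, had 0.06 (SE 0.03) at a dim level, and Rps4x, the X-linked form of the protein, 0.01 (SE 0.04). The genes with the smallest mean differences were Rps28, Rps3a1, Rps4x, Rpl35 and Rps14, each 0.01 or -0.01 when rounded. Of these, Rps4x lies at the dim end (vehicle mean 3.47), where a small difference says little about the transcript.

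Among the paralogs other than Rpl22l1, Rps27l, a p53 target, had 0.04 (SE 0.03), Rpl7l1 0.04 (SE 0.04), Rpl3l, expressed mainly in muscle, 0.03 (SE 0.03), Rpl39l, expressed mainly in testis, -0.01 (SE 0.03), and Rps4l -0.04 (SE 0.08). None of these 5 passed the test. Rps19bp1 had 0.05 (SE 0.04).

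The mean over strains hid differences between strains. The isoniazid difference varied with strain for 29 of the 45 genes (64.4%), against 17.0% of all genes tested (limma F test of strain by isoniazid, adjusted p under 0.05). They were 15 of the 18 large-subunit genes, both stalk genes, 10 of the 18 small-subunit genes and, of the paralogs, Rpl22l1 and Rps27l. All 29 were among the 36 genes above the 40th percentile of level and none among the 9 below it. With only genes above that level tested, 29 of 36 were called (80.6%), against 30.5% of all such genes. High shares were not particular to this group. In the test of all genes, initiation genes had 66.7%, elongation genes 60% and other TOP genes 57.1%. Those lists hold 0, 1 and 1 genes below the 40th percentile of level, against 9 of the 45 here, so their levels are not alike. Mitochondrial ribosomal protein genes had 51.3%, hepatocyte markers 50%, ribosome biogenesis genes 39.1% and RNA polymerase I genes 29.4%.

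The largest F values were 5.57 for Rpl41, the smallest protein of the ribosome, 5.28 for Rpl13a, 5.27 for Rpl4, 5.14 for Rps3, which lines the mRNA entry site, and 4.97 for Rpl35. Their limma adjusted p were 2.98e-11, 1.57e-10, 1.64e-10, 3.52e-10 and 9.42e-10. Rpl22l1 had 4.03 and Rpl22 2.43. With a gene's probe sets averaged in place of the brightest, F of Rps3 fell to 1.04 (adjusted p = 0.588) and that of Rpl22 to 1.36 (adjusted p = 0.284). F of Rpl22 also missed the threshold without the animals numbered 2 (1.99, adjusted p = 0.0617) or 4 (1.6, adjusted p = 0.178).

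Across strains the genes above the dim end moved together. The median difference over the 45 genes was above 0 in 12 strains and below 0 in 19, and it ran from -0.22 in NOR/LtJ, -0.19 in A/J and -0.18 in SEA/GnJ to 0.26 in DBA/2J, 0.34 in PWK/PhJ and 0.43 in NZW/LacJ, while the median over all genes stayed between -0.03 and 0.03 in every strain. Of the 36 genes above the 40th percentile, 34 were higher in NZW/LacJ, 33 in PWK/PhJ and 34 in DBA/2J, and 32 were lower in NOR/LtJ, 31 in A/J and 32 in SEA/GnJ. These strains were named for their high or low median, so a majority in that direction follows from the choice. As a description over the 31 strains, which share their arrays between genes, the correlation of a gene's difference with the median of the other 44 was over 0.5 for 31 of these 36 genes (median r = 0.88) and for none of the 9 dim ones (median r = -0.12). The highest was 0.96, for Rpl4, Rps10 and Rps3, and the lowest -0.49, for Rps24. This order of strains was not particular to the group. Over strains the median of the 45 genes correlated with that of elongation genes (r = 0.82), mitochondrial ribosomal protein genes (0.72) and initiation genes (0.71). For other TOP genes r was 0.60 and for ribosome biogenesis genes 0.45.

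**Figure D3:**
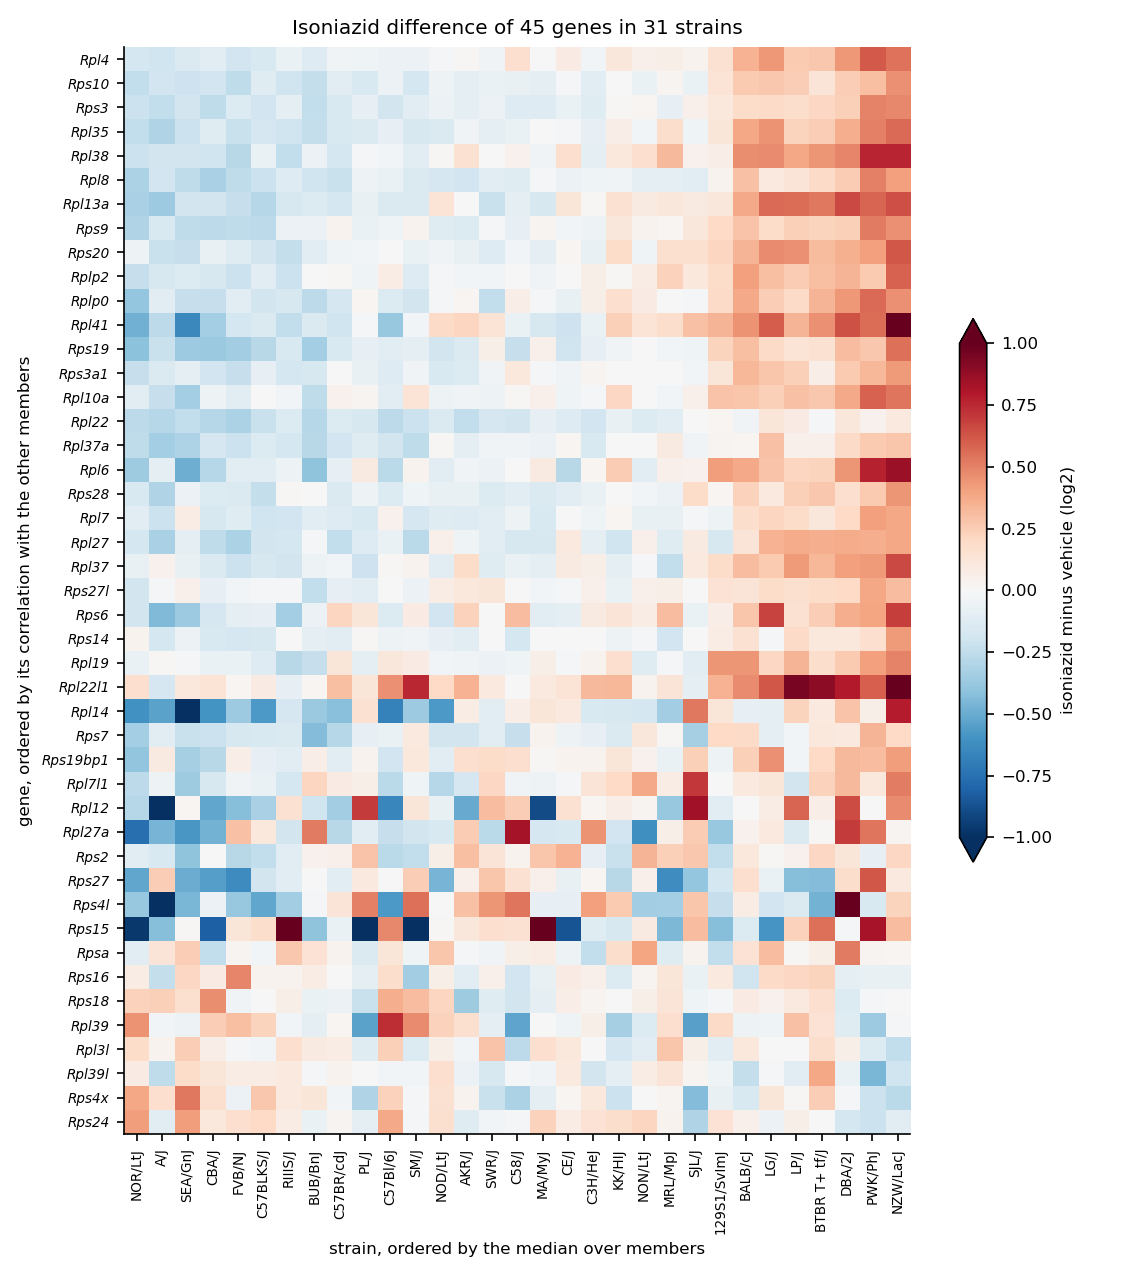
Isoniazid difference (log2, colour scale from -1 to 1) of each of the 45 genes (rows, ordered by their correlation with the other genes) in each of 31 strains (columns, ordered by the median over the genes). The upper 31 rows turn from blue at the left, where NOR/LtJ, A/J and SEA/GnJ lie, to red at the right, where DBA/2J, PWK/PhJ and NZW/LacJ lie, and the dim genes at the bottom do not follow.

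The spread of the arrays moved with this order. The SD of the log2 values was lower on isoniazid than on vehicle arrays by -0.08 in NOR/LtJ and -0.11 in SEA/GnJ and higher by 0.06 in NZW/LacJ and 0.05 in PWK/PhJ, and over the 31 strains its difference correlated with the median of the 45 genes (r = 0.54, a description). Without the 21 narrow-spread arrays the medians were -0.14 in NOR/LtJ, -0.19 in A/J, -0.10 in SEA/GnJ, 0.20 in DBA/2J, 0.32 in PWK/PhJ and 0.40 in NZW/LacJ, and 3 of 31 strains changed sign, all with medians within 0.06 of 0. In A/J, which has 2 isoniazid animals, no array was narrow and the SD differed by less than 0.01. In BALB/cJ and BTBR T+ tf/J, with medians of 0.18 and 0.21, no array was narrow, and the SD differed by 0.03 and -0.02. The part of the array spread in the result was not tested. The 3′ to 5′ signal difference of the actin control, a sign of RNA quality, differed between isoniazid and vehicle by 0.04 in NOR/LtJ, -0.19 in A/J, -0.06 in SEA/GnJ, 0.10 in DBA/2J, 0.13 in PWK/PhJ and -0.02 in NZW/LacJ.

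Within single strains, 89 of 1395 tests of these genes passed, 83 higher and 6 lower, against 2.00% of all such tests (1.27% higher, 0.723% lower). They lay in 10 strains, and in the other 21 strains no gene of the group passed. In NZW/LacJ 27 of the 45 genes were higher, against 9.32% of all genes, and none was lower. In PWK/PhJ 22 were higher, against 10.4% of all genes, and 1, the dim Rpl39l, was lower at -0.45 (4.73% of all genes). DBA/2J had 13 higher against 4.56%, LG/J 8 against 2.24%, BALB/cJ 7 against 0.926%, LP/J 3 against 0.347%, BTBR T+ tf/J 2 against 1.13% and 129S1/SvImJ 1, Rpl19, against 0.253%. NOR/LtJ had 4 lower against 3.63% of all genes, and they were Rplp0 (-0.39), Rps19 (-0.41), Rpl8 (-0.32) and Rpl22 (-0.27). In SEA/GnJ Rpl14 was lower, at -1.03, against 1.57% of all genes. None of these 5 lower calls held without the narrow-spread arrays, 2 of which were isoniazid arrays of NOR/LtJ and 1 of SEA/GnJ: Rplp0 had -0.30, Rps19 -0.28 and Rpl8 -0.16, and Rpl14 -0.52 (limma adjusted p = 0.588, 0.809, 0.879 and 0.803). Over all strains 81 calls higher and 4 lower were then made, the latter Rpl22 and Rpl8 in AKR/J, Rps7 in BUB/BnJ and Rpl39l in PWK/PhJ. NZW/LacJ then had 27 higher (26 of them called with all arrays too), PWK/PhJ 20, BALB/cJ 11, DBA/2J, LG/J and BTBR T+ tf/J 6 each, LP/J 3, and 129S1/SvImJ and SM/J 1 each. Strains with 2 or 3 isoniazid animals, such as A/J and SEA/GnJ, have wider errors. Without the animals numbered 4 the calls higher were 48, and without those numbered 3 the calls lower were 0.

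Values of single animals show the size of these shifts. For Rpl4, which lines the exit tunnel of the nascent chain, the vehicle animals of NZW/LacJ had 11.84, 11.71, 11.66 and 11.77 and the isoniazid animals 12.21, 12.33, 12.20 and 12.41, with no overlap and a difference of 0.54 (SE 0.09, limma adjusted p = 1.53e-06). In NOR/LtJ its vehicle animals had 11.77, 11.80, 11.80 and 11.80 and its isoniazid animals 11.43, 11.63, 11.75 and 11.66. All 4 were lower, but the difference of -0.18 (SE 0.09) did not pass (limma adjusted p = 0.201). For Rpl13a in PWK/PhJ, vehicle animals had 11.96, 11.91, 11.91 and 12.10 and isoniazid animals 12.20, 12.64, 12.85 and 12.50, a difference of 0.58 (SE 0.13, limma adjusted p = 0.000314) without overlap.

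For Rps3 in NZW/LacJ, vehicle animals had 11.44, 11.21, 11.30 and 11.38 and isoniazid animals 11.71, 11.96, 11.69 and 11.89, again without overlap. In SEA/GnJ its 4 vehicle animals had 11.81, 11.61, 11.84 and 11.71 and its 2 isoniazid animals 11.65 and 11.47, which overlap. For Rpl35 in DBA/2J, vehicle animals had 12.24, 12.54, 12.58 and 12.25 and isoniazid animals 12.40, 12.78, 13.01 and 12.86, where 1 isoniazid animal lies within the vehicle range. Rpl41 had the widest range of differences among the 5 genes with the largest F: -0.65 (SE 0.20) in SEA/GnJ, where it did not pass, and 1.29 (SE 0.16, limma adjusted p = 9.67e-11) in NZW/LacJ.

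By steatosis code, the isoniazid difference was called in 0 of the 45 genes between the 13 steatosis strains and the other 18 (background 0.00%; at an unadjusted p under 0.05, 1 of 45 and 491 of 18146 by limma; animals as replicates also called 0 of 45). The strain median over the 45 genes was above 0 in 6 of 13 steatosis strains and in 6 of 18 others. The smallest p was that of Rpl7l1, with 0.14 ± 0.27 (SD) in steatosis strains and -0.03 ± 0.19 in the others, a difference of 0.18 (95% interval 0.01 to 0.34, limma adjusted p = 1). Rpl27, Rps19bp1, Rps20 and Rps16 followed, with differences of 0.13, 0.11, 0.11 and 0.08. The median of these differences over the 45 genes was 0.06, and 0.01 over the 22 strains without deaths.

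Under vehicle too, 0 of 45 genes differed between the 2 sets of strains (background 0.00%; at an unadjusted p under 0.05, 1 of 45 and 737 of 18146 by limma). With animals as replicates in place of strains 5 of 45 were called, beside 1957 of all 18146 genes. The 5 were Rpl19, Rps15 and Rps19, higher, and Rps4l and Rps6, lower in steatosis strains. The smallest p over strains was that of the dim Rps15, with 4.15 ± 0.38 (SD) against 3.83 ± 0.46, followed by Rpl19, with 11.87 ± 0.10 against 11.75 ± 0.23, Rps24 (a difference of 0.06), Rps4l (-0.32) and Rps7 (0.05).

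The level under vehicle varied between strains for 34 of the 45 genes (75.6%), against 53.4% of all genes tested (limma F test over 31 strains). For most of the genes above the 40th percentile the range was narrow: the SD over strain means was under 0.25 for 30 of the 36, with a median of 0.14. KK/HIJ had the lowest level of all strains for 12 of these 36 genes and was among the 2 lowest for 17. AKR/J was among the 2 highest for 12 and PWK/PhJ for 10. Rplp0, for example, ran from 11.64 ± 0.07 (SD, n = 4) in PL/J and 11.74 in KK/HIJ to 12.38 ± 0.08 in C57BR/cdJ.

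Of the 5 genes with the largest F, Rpl14 and Rpl41 had gaps between groups of strains, Rps19 and Rps4l had a single low strain, and Rps6 ran without a gap. These are probe signals: a strain's transcript level and the match of its sequence to the probes cannot be told apart here, since strain sequences were not analysed. Rpl14 (F = 44.3, limma adjusted p = 4.59e-65) lay between 2.61 and 2.89 in 4 strains (BTBR T+ tf/J, LG/J, MRL/MpJ and PWK/PhJ), between 3.65 and 4.66 in 19 and between 5.98 and 6.66 in 8, so that its lower levels lie at the dim end of the array. Rpl41 (F = 33.6) lay between 9.56 and 9.87 in 8 strains and between 7.75 and 8.63 in the other 23. Rps19 (F = 19.7) was 9.55 ± 0.19 (SD, n = 4) in PWK/PhJ, the wild-derived strain, and between 11.24 and 11.90 in the other 30, among which F was 4.5. Rps6 (F = 14.8) ran from 6.45 ± 0.20 in CE/J to 8.00 ± 0.15 in C57BLKS/J. Rps4l (F = 8.46) was 4.57 ± 0.65 in PL/J and ran from 5.80 in NZW/LacJ to 8.17 ± 0.69 in C58/J.

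**Figure D4:**
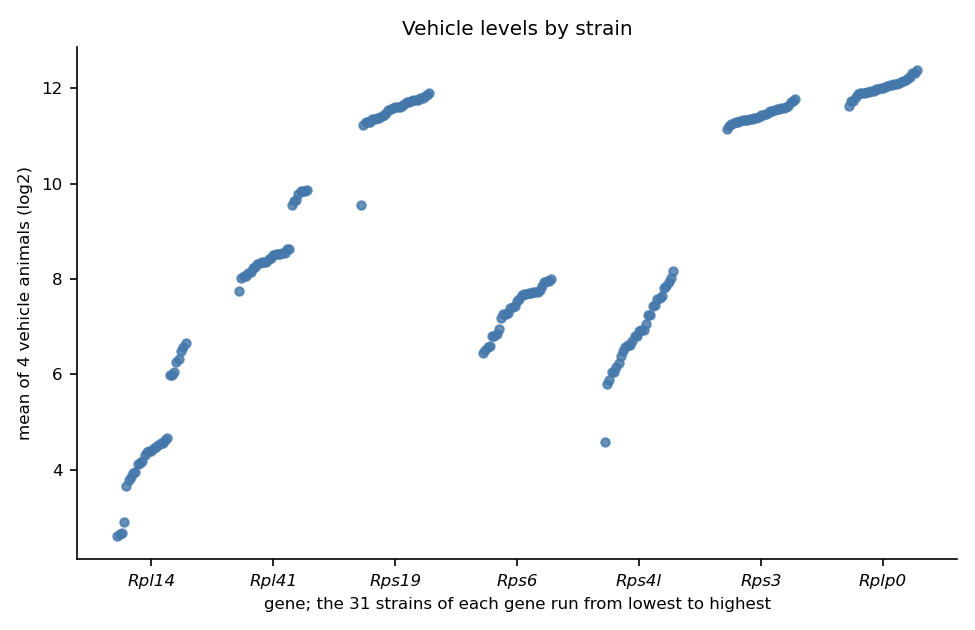
Vehicle level (log2, mean of 4 animals) of 7 genes in 31 strains, each gene's strains drawn from lowest to highest. Rpl14 shows 3 levels (4, 19 and 8 strains), Rpl41 2 levels (23 and 8), Rps19 a single low strain (PWK/PhJ, 9.55) and Rps4l a low strain (PL/J, 4.57), while Rps3 and Rplp0 run smoothly over less than 1 log2 unit.

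Where a gene had several probe sets, their levels over strains were set side by side. Dim probe sets, such as those of Rpl41, cannot show whether a gap belongs to the gene or to a probe set, and averaging them in dilutes it. Rpl41 had 4 probe sets, and the 3 not used lay below the 40th percentile, at means of 2.57 to 3.30 with ranges over strains of 0.46 to 1.26; with the mean of all 4, F was 1.95. The second probe set of Rps6, also dim, ranged over 0.64. Rps9 showed the opposite case: the probe set used ran from 11.27 to 12.03 over strains, while its second lay at 2.30 to 2.58 in 23 strains, at 4.49 to 4.86 in 4 and at 7.86 to 8.54 in 4 (C57BLKS/J, C57Bl/6J, C58/J and PWK/PhJ). The dimmest probe set of Rpl7l1 lay at 2.19 to 2.68 in 6 strains and at 6.20 to 7.06 in the other 25, while the one used ran from 7.37 to 8.20. Rpl14, Rps19 and Rps4l had 1 probe set each.

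Probe sets of a gene also differed in their isoniazid difference. Of the 19 genes with over 1 probe set, the mean differences had both signs in 10, and their spread had a median of 0.08 and was over 0.2 in 4. Rps20 had 0.06 and 0.03 on its bright probe sets and -0.33 and -0.27 on dim ones, the latter lower in 28 and 27 of 31 strains. Rps3 had -0.02 on the probe set used and -0.27 on a dimmer one (lower in 25 strains), Rpl13a 0.06 and 0.04 on the brighter ones and -0.20 on the dimmest, and Rpl7l1 0.04 on the one used and 0.20 on a probe set of nearly the same level (higher in 25 strains). With probe sets averaged, Rps3 and Rps20 were called lower beside Rpl22.

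The other genes of translation and ribosome production were taken from lists. Their counts are of genes called over strains, beside 10.2% of all genes called higher and 9.85% called lower. The 9 long noncoding hosts of snoRNAs had the largest shift: 0 rose and 8 fell, with a median difference of -0.39. Zfas1 fell by 0.62 (SE 0.07, limma adjusted p = 8.48e-08) and was lower in 31 of 31 strains, Snhg5 fell by 0.70 and was lower in 28, Snhg1 fell by 0.63 and was lower in 30, and Snhg12 fell by 0.55 and was lower in 29. Snhg6 fell by 0.39, Gas5, the host named for growth arrest, by 0.25, Snhg7 by 0.18 and Snhg8 by 0.12, while Snhg3 had -0.10 (limma adjusted p = 0.223). The other bright probe sets of Snhg1 had -0.57 and -0.65, and the second of Gas5 -0.25. The remaining, less bright probe sets of Gas5, Snhg1 and Snhg5 had differences between -0.06 and 0.02 and did not repeat the fall. Those of Gas5 (vehicle means 5.28 and 4.55) and the brighter of Snhg5 (5.36) lay above the 40th percentile, the others below it. With the mean of all probe sets Gas5 had -0.13 (limma adjusted p = 0.0766), Snhg5 -0.25 and Snhg1 -0.38. Within each of the 10 scan dates Zfas1, Snhg1, Snhg5, Snhg12, Snhg6 and Gas5 were lower under isoniazid.

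The snoRNA hosts did not follow the ribosomal protein genes over strains. As a description, their medians had r = -0.39 with those of the ribosomal protein genes over 31 strains, against 0.72 for mitochondrial ribosomal protein genes. Their median was below 0 in 30 of 31 strains, in those where the ribosomal protein genes were lower (-0.42 in NOR/LtJ, -0.38 in A/J, -0.67 in SEA/GnJ) and in those where they were higher (-0.35 in DBA/2J, -0.21 in PWK/PhJ, -0.93 in NZW/LacJ). In PWK/PhJ the isoniazid animals stood far apart for these hosts: Snhg1 had 9.19, 11.74, 7.34 and 7.14, against 8.44, 9.59, 9.12 and 9.10 in vehicle animals, so that 1 isoniazid animal lay above all vehicle animals and 2 below. The lowest median was -1.15 in BTBR T+ tf/J, where the ribosomal protein genes had 0.21. The medians of mitochondrial ribosomal protein genes, by contrast, were -0.21, 0.04 and -0.16 in the first 3 of these strains and 0.35, 0.28 and 0.45 in the last 3.

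**Figure D5:**
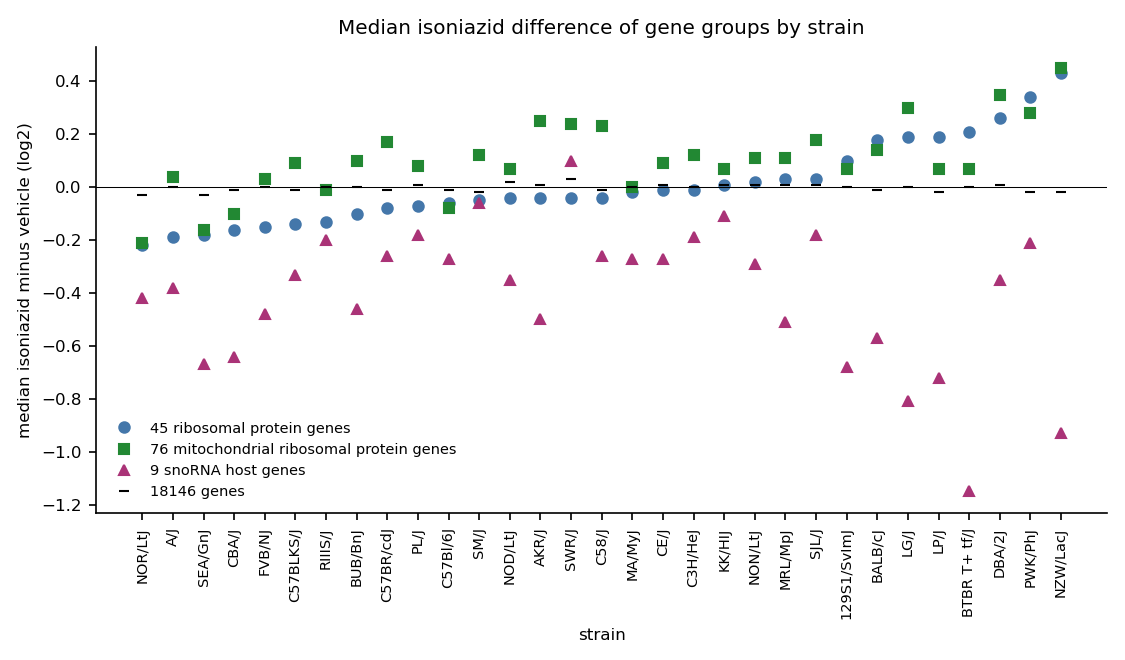
Median isoniazid difference (log2) in each of 31 strains of the 45 ribosomal protein genes, 76 mitochondrial ribosomal protein genes, 9 snoRNA host genes and all 18146 genes. Strains are ordered by the ribosomal protein genes, from -0.22 in NOR/LtJ to 0.43 in NZW/LacJ; the snoRNA hosts lie below 0 in 30 strains and all genes stay within 0.03 of 0.

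Of 14 TOP genes outside the ribosome, 1 rose and 9 fell, with a median of -0.10. Nap1l1, a histone chaperone, fell by 0.35 and was lower in 27 strains, Npm1, the nucleolar chaperone nucleophosmin, fell by 0.26 and was lower in 28, Eif4b fell by 0.19, Hnrnpa1 by 0.17, and Eef1a1, the elongation factor that brings tRNA to the ribosome, fell by 0.14 and was lower in 27. Eef1b2 rose by 0.11. Of the 10 elongation and termination genes, 3 of which are also in the TOP list, 3 rose (Eif5a by 0.16, Gspt1 by 0.11 and Eef1b2) and 4 fell (Eef1a1, Eef1d, Eef2 and Eef2k). Fau, which encodes the small-subunit protein eS30 and lies outside the symbol rule, had 0.01 (SE 0.02).

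The following counts also stand beside 10.2% of all genes called higher and 9.85% called lower, and small counts are not read as a response of a list. Of 30 initiation genes 3 rose and 5 fell, of which Eif4e2, a cap-binding protein that represses translation, rose by 0.28 and Eif4a2 fell by 0.34. Of 64 ribosome biogenesis genes 7 rose and 8 fell; Nhp2, of the snoRNPs that place pseudouridine, rose by 0.33, and Utp14a fell by 0.27. Of 17 RNA polymerase I genes 0 rose and 3 fell: Taf1d, itself a host of snoRNAs, by 0.49 and in 31 of 31 strains, Polr1c by 0.21 and Polr1d by 0.14. Of 22 genes of mTORC1 and LARP1 control 2 rose (Rptor by 0.19 and Mtor by 0.11) and 3 fell, among them Larp1 by 0.17 and Tsc1 by 0.14. Of 5 genes of the ribosomal stress and p53 list 0 rose and 2 fell, Cdkn1a by 0.62 and Ccng1 by 0.25. Of 76 mitochondrial ribosomal protein genes 42 rose and 1 fell, with a median of 0.11; Mrpl51 rose by 0.20 and Mrps27 by 0.24, each in 31 of 31 strains.

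Among markers of other liver cells, those of Kupffer cells and macrophages fell most often over strains. Over all genes 10.2% were called higher and 9.85% lower. Of 16 Kupffer cell and macrophage markers 0 rose and 10 fell (median -0.21; their mean level per strain ran from 6.07 to 8.24 under vehicle and from 5.75 to 8.54 under isoniazid), and of 14 endothelial markers 0 rose and 3 fell (6.15 to 7.36 and 6.05 to 7.46). Of 10 hepatocyte markers 1 rose and 1 fell. In the 3 strains with the highest ribosomal protein medians the Kupffer cell median was -0.12 in DBA/2J, -0.59 in PWK/PhJ and 0.07 in NZW/LacJ, and in the 3 with the lowest it was -0.71 in NOR/LtJ, -0.36 in A/J and -0.59 in SEA/GnJ. For B cells, T and NK cells, neutrophils, stellate cells, bile duct and red cells, 0 markers rose and 2 of 9, 1 of 11, 1 of 9, 1 of 12, 2 of 7 and 1 of 4 fell, and of 11 proliferation genes 1 rose and 1 fell. Counts of 1 or 2 genes in such short lists are not read as a change of a cell type. The values have no zero, and no marker is at 0. Their part in the results was not tested.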

How the data were processed

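The authors deposited log2 values of each probe set. The submitters' processing notes name RMA and Affymetrix Power Tools, without versions. RMA equalises array distributions, so a shift common to all genes is removed and low values are compressed. Genes were named from 34717 probe sets with 1 symbol in the platform annotation, a gene taking its brightest probe set. Depth does not apply to arrays; their number limits the precision.

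Strain differences (mean isoniazid minus mean vehicle) were tested with limma 3.58.1 in R 4.3.3 over 31 strains. The F tests and within-strain tests used a fit of 62 groups with animals as replicates. P-values were adjusted (Benjamini-Hochberg) over 18146 genes, within each strain for single strains, two-sided, with a threshold of 0.05. No filter was set on dim genes. On simulated data over strains, 26% of genes changed by 0.1, 82% by 0.2 and 100% by 0.4 (log2) were recovered. Correlations used 100000 permutations.

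The genes, lists and tests were chosen with earlier results of these data known. Named genes were the called ones, up to 5 by F or p, the 5 smallest differences, a fixed set of known genes and all paralogs, up to 4 per list by t and 6 strains by median; the other TOP, elongation and snoRNA host genes and the probe sets with gaps were named after their values were seen. The animal number did not pair animals: same-numbered animals of a strain had a median correlation of -0.02 over 111 pairs. Alternatives are under the closing section.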

Additional observations from a re-analysis of the deposited data

Results flagged for a closer look

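The isoniazid difference varied between strains for 29 of the 45 genes (64.4%, against 17% of all genes) by the F test of strain by isoniazid. F was 5.57 for Rpl41, 5.28 for Rpl13a, 5.27 for Rpl4, 5.14 for Rps3, 4.97 for Rpl35, 4.03 for Rpl22l1 and 2.43 for Rpl22.

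Of 19 groups of 4 animals whose single values are given, 1 held an animal far from the other 3 relative to the range of the group. It was Rpl4 in NOR/LtJ vehicle animals, at 11.77 beside 3 animals at 11.80, which is a gap of 0.03. About 1 in 20 such groups shows a gap of this relative size by chance.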

How the results depend on the processing

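Rpl22 (-0.14 to -0.11) and Rpl22l1 (0.27 to 0.33) passed the test over strains in each of 45 alternatives. The count of genes called higher over strains, 1, was 9 with animals as replicates and 9 with the replicate block. Animals as replicates called 5094 of all 18146 genes in either direction, against 3636 with strains. The count called lower, 1, was 5 with animals as replicates, 3 with the block, 3 when probe sets were averaged, 2 with scan date as a term and 2 without narrow-spread arrays. It was 1 to 2 when a strain or an animal number was left out, with 2 without NZW/LacJ or SJL/J (Rpl14 added), PWK/PhJ (Rps7 added) or replicate 3. Within strains, the 83 calls higher were 48 to 72 when an animal number was left out, with 48 without replicate 4, and up to 94 otherwise. The 6 calls lower were 10 without dim genes, 3 with arrays centred on their median, 2 with the block and, without an animal number, between 0 (without replicate 3) and 7. Under vehicle, 5 genes differed by steatosis code with animals as replicates and 5 with the block, against 0. Over all genes, animals as replicates called 1957 there, against 0 with strains. Same-numbered animals share only a number. The F test of strain by isoniazid called 20 to 29 genes over 44 alternatives and that of vehicle levels 27 to 35. The counts of snoRNA hosts lower (7 to 9), other TOP genes lower (8 to 10) and mitochondrial ribosomal protein genes higher (31 to 52), recomputed after seeing the data, stayed within 1.5 times. Where a strain kept 1 animal per arm, it was assumed to vary like the others. Dim genes limit what the arrays can show.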
